A study of Mus musculus with 8 samples.

Results

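The response of cultured mouse follicular cells to estradiol (E2) was followed in the arrays labelled FOXL2 siRNA. The comparison takes 4 of the 8 arrays of the series, 2 given E2 and 2 given vehicle, paired by the replicate number of their titles. It covers the 15637 genes, of 24232 on the array, whose median signal over all 8 arrays was at least 10 once every array had been set to its 75th percentile. The cells were primary follicular cells, mostly granulosa cells, from Swiss mice aged 8 weeks, pooled from 5 mice per replicate and kept for 9 days in culture. All groups were grown in medium with charcoal-treated serum. The arrays labelled FOXL2 siRNA came from cells that received 12 pmol of a siRNA pool against Foxl2 for 24 h, and either vehicle or 100 nM E2 for 10 h. The other 4 arrays, labelled control siRNA, had a non-targeting pool of the same amount with vehicle or E2 and are used here only for comparison. A group therefore stands for 2 pools of a single outbred stock, treated in culture, and its spread is that between 2 pools.

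E2 acts through nuclear receptors, chiefly ESR1 and ESR2, which bind DNA and recruit coregulators to raise or lower the transcription of nearby genes. Granulosa cells surround the oocyte, make E2 from androgens with the enzyme aromatase, and carry mainly ESR2. FOXL2 is a forkhead transcription factor that maintains granulosa cell identity and keeps genes of Sertoli cells, their counterparts in the testis, at a low level. The comparison asks which genes E2 changes when the cells have been given siRNA against FOXL2.

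The scaled 75th percentile came from array values of 275 to 367 units, and 51.4 to 55.7% of probes per array were well above background. Across genes, the 2 arrays labelled FOXL2 siRNA correlated at 0.991 with vehicle and 0.992 with E2. Foxl2 itself read a log2 scaled signal of 13.41 and 13.39 with vehicle (replicates 1 and 2) and 13.12 and 12.96 with E2. With control siRNA it read 13.46 and 13.01 with vehicle and 12.94 and 12.76 with E2, so the gene was not lower in the arrays labelled FOXL2 siRNA. Of its 2 probes, the bright A_55_P2037732 followed the gene, while the dim A_55_P2041668 lay between 5.47 and 6.03 in the 4 arrays labelled FOXL2 siRNA and between 6.35 and 7.00 in the other 4. By qPCR, the study reports that each siRNA pool lowered the mRNA it targets. On these arrays, other genes differed between the siRNAs without E2. Fst, an activin antagonist and known target that FOXL2 activates, read 9.32 and 9.36 with FOXL2 siRNA and vehicle against 11.35 and 11.32 with control siRNA and vehicle. Sox9, which FOXL2 is known to repress, read 8.39 and 8.46 against 5.66 and 5.87. The dim Foxl2 probe, Fst and Sox9 thus separated the siRNAs in the direction of the labels and the bright Foxl2 probe did not. For the treatment labels, Greb1, which E2 is known to raise, was above vehicle after E2 in arrays labelled FOXL2 siRNA and below it in those labelled control siRNA. The directions found below for E2 with control siRNA are mostly opposite to the activation that the study describes there. Whether vehicle and E2 labels were exchanged among the arrays of either siRNA was not tested. An exchange for 1 siRNA would turn the sign of its E2 changes and alter the difference between both siRNAs. All directions take the labels as given, and groups are named as the arrays labelled so.

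The cultures carried granulosa cell genes at high levels. Inha, a subunit of inhibin, read 15.1 to 15.4 and Amhr2, the receptor of anti-Müllerian hormone, 15.2 to 16.1 over the 8 arrays. The defining granulosa genes Fshr, the receptor of follicle-stimulating hormone, and Amh were on no array well above background, and Cyp19a1, which encodes aromatase, was so on 6 of 8. Summed over the 33 members on the array, granulosa genes reached 198120 to 213423 units with vehicle and 190533 to 204680 with E2. Smooth muscle and pericyte markers differed by replicate number, at 29639 and 46712 units with vehicle and 26629 and 45542 with E2. Of 16 on the array, 9 were well above background on all 8 arrays, as were Acta2 and Tagln, with Myh11 at background in all 8. Macrophage and leukocyte markers summed to 2913 and 3144 units with vehicle and 3029 and 2553 with E2. Of 25, 11, Ptprc among them, did not stand well above background anywhere, and 9 did so on all 8 arrays. Csf1r read 8.35 to 8.97 over the 8 arrays. Endothelial markers gave 7517 and 6111 units with vehicle and 6906 and 5837 with E2. Of these, Cdh5, Emcn and 7 others of 18 were not above background anywhere. Another 8 were well above it on all 8 arrays, as was Pecam1. For theca cell markers the sums were 363398 and 372136 against 356207 and 354495. Of 14 on the array, 10 were well above background on all 8 arrays and 3, Lhcgr among them, on none. Ovarian surface epithelium markers summed to 30673 and 29806 against 27845 and 29136. Of 15, 8 were well above background on all 8 arrays and 3 on none. Such sums follow their brightest members and do not compare cell numbers between lists. For oocyte markers the sums were 406 and 417 against 363 and 386. Of 19 oocyte markers, 12 were not above background on any array and 5 were well above it on all 8. The part of these cells in the results was not tested, and on such arrays fewer cells of a type and less RNA per cell cannot be told apart.

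In the arrays labelled FOXL2 siRNA, 96 genes changed with E2, which is 0.614% of those tested. Of these, 72 were higher with E2 (0.46% of all genes) and 24 were lower (0.153%). The call rests on limma with the replicate number as a block and a Benjamini-Hochberg adjusted p under 0.05. Without the block only 2 genes were called (0.0128%), both higher. At an unadjusted p under 0.05 there were 1187 genes. The higher genes changed by 0.41 to 3.74 on the log2 scale with a median of 0.98, and 35 of them reached a log2 change of 1. The lower genes changed by 0.46 to 1.89 in size with a median of -0.72, and 5 reached that size. By construction of the test the called genes agreed between the replicate pairs, and 67 of the 72 higher and 21 of the 24 lower ones had no overlap between E2 and vehicle arrays, against 10.3% and 17.2% of all genes separated in these directions. Over all genes the median change was -0.03, with 41.0% higher, and the change of replicate pair 1 correlated with that of pair 2 at 0.10.

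**Figure D1:**
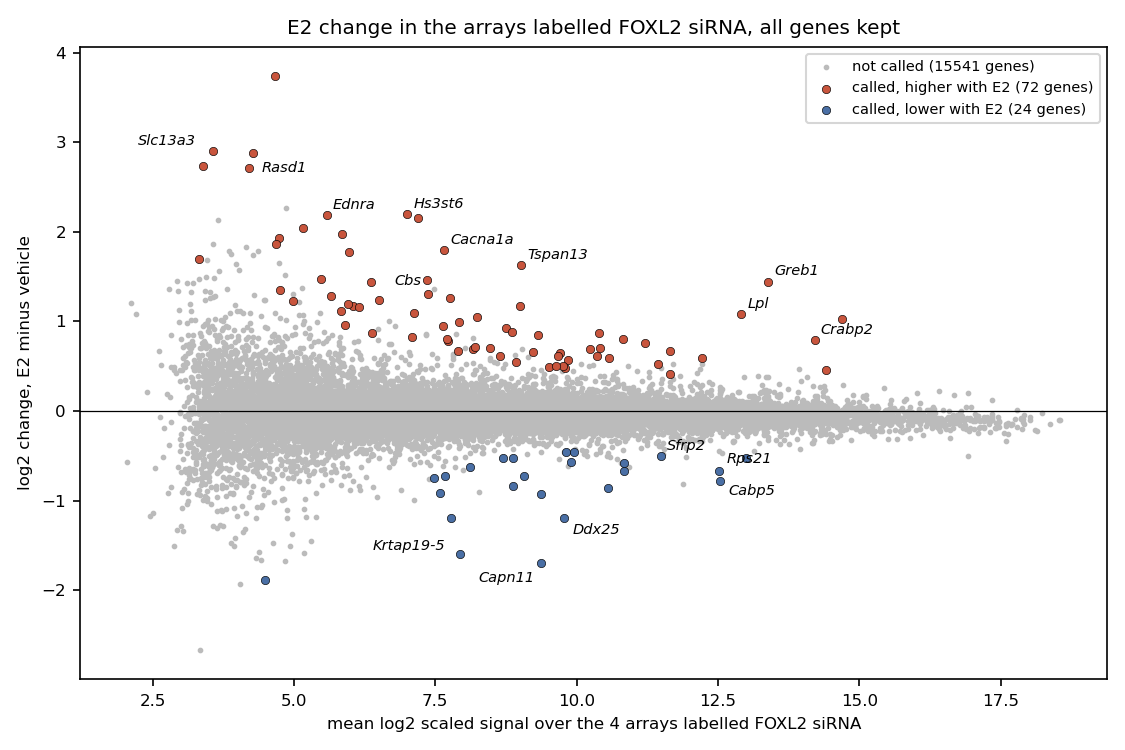
Log2 change with E2 in arrays labelled FOXL2 siRNA (vertical axis, E2 minus vehicle, fitted over replicate pairs) against the mean log2 scaled signal of the 4 arrays (horizontal axis) for 15637 genes. Red points are the 72 genes called higher, blue points the 24 called lower and grey points the rest. Greb1, Lpl and Crabp2 are labelled among the bright called genes. Tmem86a, brighter than these and higher by 1.03, is not labelled. The largest changes belong to dim genes.

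Estrogen response genes were the list nearest to the treatment. It holds 46 genes known from other tissues, of which 39 passed the signal filter. It includes a few genes that the study names from these same arrays, so its calls are not independent evidence of E2 action. Greb1, Cbs and Angpt2 rose, Adora1 fell, and the list's median was 0.02 against -0.03 for all genes. Greb1, a cofactor of the estrogen receptor and a standard E2-induced gene, read 13.06 and 12.25 with vehicle and 14.35 and 13.86 with E2. Both E2 arrays lay above both vehicle arrays, and the gain was 1.44 (SE 0.14, limma adjusted p = 0.000403), or 2.72-fold. Cbs, which makes cystathionine in the transsulfuration pathway, read 6.73 and 6.70 with vehicle and 8.16 and 7.89 with E2, a gain of 1.31 (SE 0.15, adjusted p = 0.00153). Its vehicle arrays were almost equal and well under both E2 arrays. Angpt2, a secreted ligand of the TEK receptor of blood vessels, was not well above background on either vehicle array (3.67 and 3.87) and reached 6.44 and 4.97 with E2. It was at least 3.83-fold higher (adjusted p = 0.0175), with replicate 1 moving more than replicate 2. For a gene not well above background with vehicle, "at least" sets the mean of the E2 arrays against the mean over vehicle arrays of the higher of the gene's own signal and the lowest signal counted as well above background on that array. For Angpt2, Rasd1 and Pcdh8 the gene's own signal was the higher, so the bound equals the fitted fold. It is therefore a bound on group means and sets no floor for a single pair. Replicate pair 2 rose by 1.10 for Angpt2 and by 1.00 for Pcdh8 on the log2 scale. Adora1, an adenosine receptor that lowers cAMP, went the other way, from 9.76 and 9.12 to 8.90 and 8.53, a change of -0.73 (SE 0.12, adjusted p = 0.0176). Its replicate 1 with E2 was still below both vehicle arrays. Other known E2 genes gave no call: Ccnd1, a cyclin of the early cell cycle, gave -0.40 (adjusted p = 0.706), and Pgr, the progesterone receptor, was at background throughout.

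The upstream sequence of 2 of the called genes is shown to let the reader see the estrogen response motif in a gene that rose and in a gene that fell. Windows without the motif were passed over, so its presence in these 2 is no result. Bcan was also looked up and gave no window to show. Each run is the 250 bases before the annotated start from RefSeq (GRCm38.p6), 5′ to 3′ on the gene's strand, with the motif GGTCA, a single arm of the estrogen response element, in capitals on either strand. Greb1 lies on chr12:16757240-16757489 (minus strand, the window with more motifs of the 2 listed) and holds it 2 times. Sfrp2 lies on chr3:83766071-83766320 (plus strand) and holds it 1 time, as its reverse complement.
Greb1: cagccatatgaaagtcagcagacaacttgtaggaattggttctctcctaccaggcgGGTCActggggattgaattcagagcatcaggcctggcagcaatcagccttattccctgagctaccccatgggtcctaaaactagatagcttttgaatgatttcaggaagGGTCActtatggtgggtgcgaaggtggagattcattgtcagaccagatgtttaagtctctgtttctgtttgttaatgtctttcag
Sfrp2: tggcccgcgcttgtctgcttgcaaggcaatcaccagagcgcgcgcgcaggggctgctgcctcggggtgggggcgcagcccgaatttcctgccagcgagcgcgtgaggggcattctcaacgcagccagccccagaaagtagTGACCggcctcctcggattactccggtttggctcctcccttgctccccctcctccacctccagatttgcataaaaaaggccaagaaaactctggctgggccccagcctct

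A promoter window, reaching 50 bases past the start, was listed for 49 of the 72 higher genes and 15 of the 24 lower ones. GGTCA, searched on both strands, was in 24 of the 49 (49.0%) and 9 of the 15, beside 42.4% of the 11589 genes kept that have a window and 40.5% of all windows. The palindrome GGTCANNNTGACC, which contains it, was in 0 of the called genes and in 3 of the 11589. The forkhead motif TGTTTAC was in 0 of the 49, 1 of the 15 (Pde1b) and 3.04% of genes with a window. A match describes letters in a short window and no binding.

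**Figure D2:**
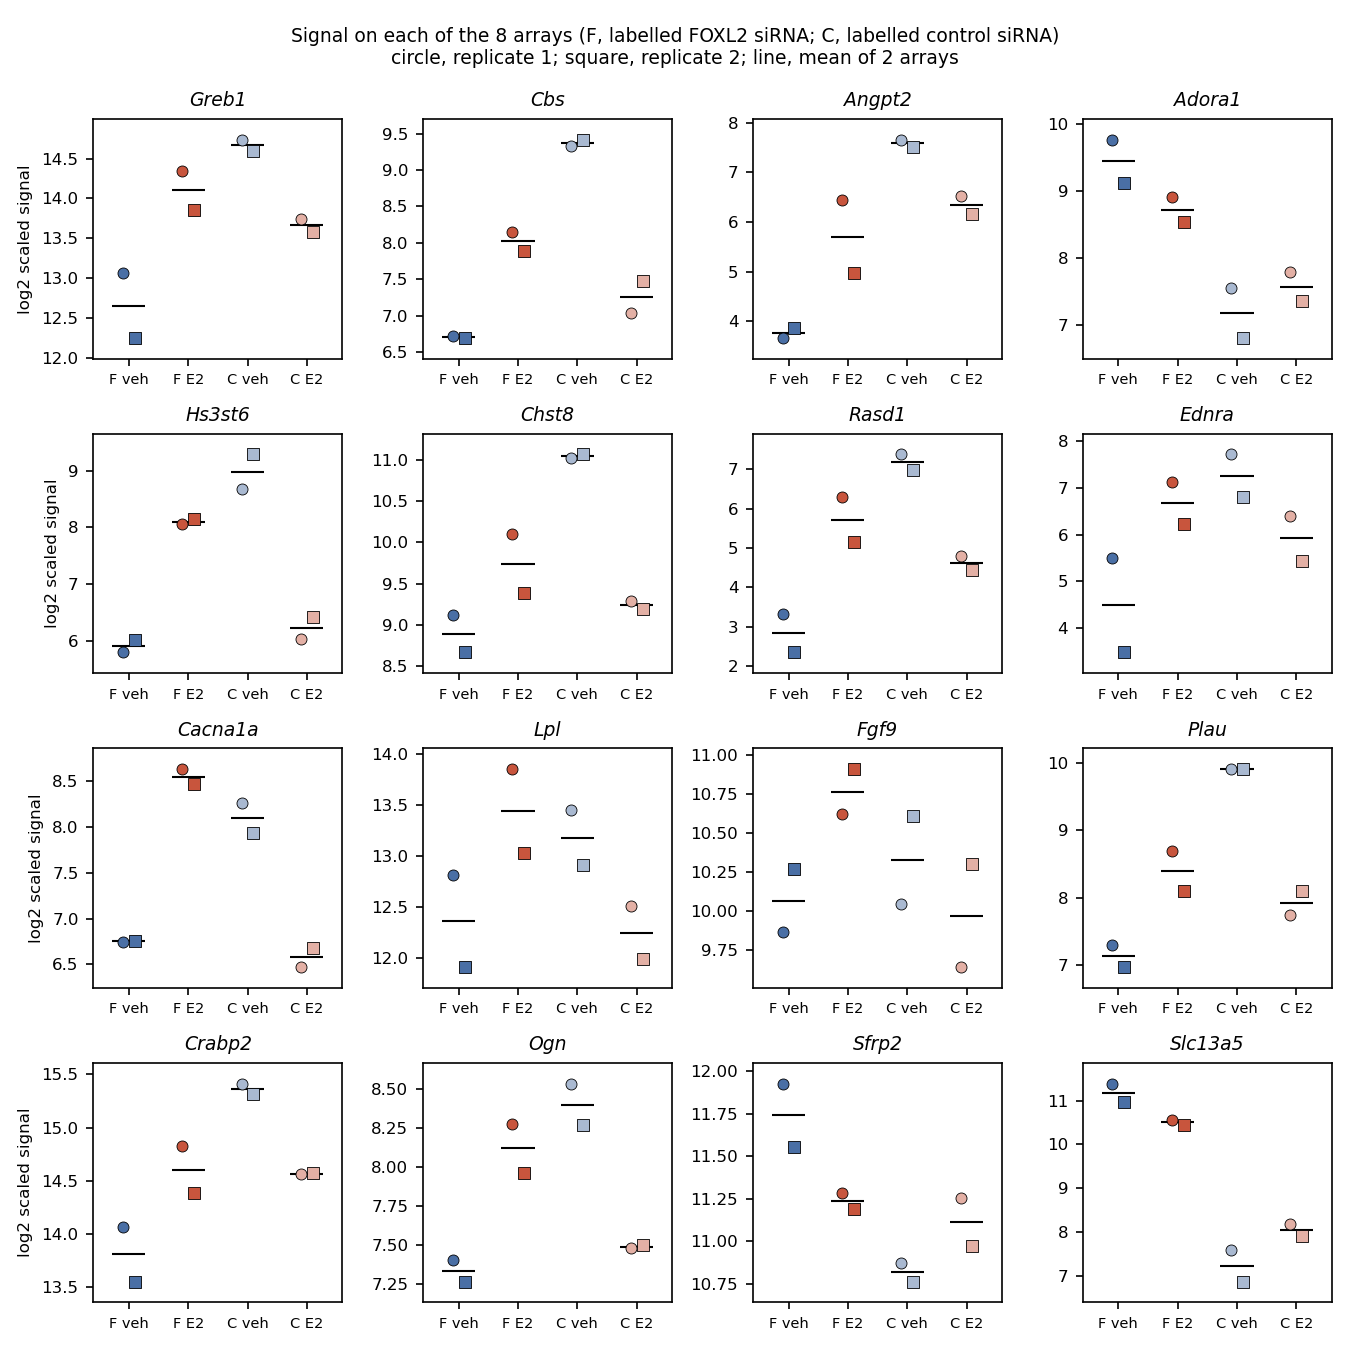
Log2 scaled signal (vertical axis) of 16 called genes on each of the 8 arrays, grouped on the horizontal axis as FOXL2 siRNA with vehicle and E2 (F veh, F E2) and control siRNA with vehicle and E2 (C veh, C E2). Circles are replicate 1, squares replicate 2 and lines group means of 2 arrays. Greb1 and Lpl show large gaps between replicates that are kept in both treatments, and most higher genes run the other way in the arrays labelled control siRNA.

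Several called genes act in signalling at or near the cell membrane. Rasd1, a Ras-like small G protein first known as induced by glucocorticoids, was called in all 8 fits that each lacked 1 array. It was not well above background on either vehicle array (3.32 and 2.36) and read 6.29 and 5.14 with E2, at least 7.35-fold higher (adjusted p = 0.000403). Ednra, a receptor of endothelin, rose from 5.49 and 3.48 to 7.13 and 6.22, by 2.19 (SE 0.25, adjusted p = 0.00158), with 1 vehicle array not well above background. In both genes the E2 arrays lay above both vehicle arrays. The vehicle arrays of Ednra differed by almost as much as the treatments. Rgs3, which speeds the shut-off of G proteins, rose from 8.98 and 8.82 to 9.68 and 9.44 (0.66, SE 0.11, adjusted p = 0.0223). Pde1b, a phosphodiesterase of cyclic nucleotides, fell from 10.23 and 9.85 to 9.69 and 9.46 (-0.46, SE 0.09, adjusted p = 0.0421). Of 45 measured genes of cAMP and G protein signalling, these calls made 2 higher and 1 lower, and the list's median was -0.04.

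Growth factor and WNT genes gave 1 call each. Fgf9, a fibroblast growth factor that drives Sertoli cell fate in the fetal testis, rose from 9.86 and 10.27 to 10.62 and 10.91, by 0.70 (SE 0.10, adjusted p = 0.00728). Here replicate 2 was the higher array in both treatments, and the groups did not overlap. It was the 1 call of 47 genes of receptor kinase growth factor signalling, whose median was -0.06. Fgfr4, a receptor of such factors, had the lowest change of that list, -1.58, with 5.44 and 6.51 against 4.54 and 4.24, and was not called (adjusted p = 0.123). Sfrp2, a secreted protein that binds WNT ligands, fell from 11.93 and 11.56 to 11.28 and 11.19 (-0.50, SE 0.09, adjusted p = 0.0324) and was the 1 call of 41 WNT genes. Hunk, a serine/threonine kinase found in hormone-responsive mammary tissue, rose from 5.41 and 4.77 to 7.20 and 6.52 (1.77, SE 0.17, adjusted p = 0.000403). Its replicates kept the same order with a near equal gain in each pair. Of 27 blood vessel growth genes, Angpt2 and Ednra were the 2 that rose.

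A further group encodes ion channels and adhesion proteins best known from neurons. Cacna1a, the pore of a voltage-gated calcium channel, read 6.75 and 6.76 with vehicle and 8.63 and 8.46 with E2. The gain of 1.80 (SE 0.14, adjusted p = 0.00012) was the only one among genes with an ordinary symbol that was also called without the replicate block. Asic4, of the acid-sensing ion channel family, rose from 4.53 and 5.17 to 6.73 and 6.93 (1.98, SE 0.27, adjusted p = 0.00493). Cntnap2, a neurexin-like adhesion protein, rose from 6.41 and 6.81 to 7.99 and 8.17 (1.46, SE 0.14, adjusted p = 0.000403). In all of these the E2 arrays sat clear of the vehicle arrays. Bcan, the proteoglycan brevican, was dim, with 3.65 and 3.86 against 6.08 and 5.17 (1.86, SE 0.36, adjusted p = 0.0421). Pcdh8, a protocadherin, was not well above background with vehicle (2.35 and 2.58) and on 1 of 2 arrays with E2 (4.74 and 3.58), at least 3.25-fold higher (adjusted p = 0.0421). The rise did not extend to the lists. Of 33 voltage-gated channel genes Cacna1a was the 1 call with a list median of -0.05, and of 32 synapse and neurotransmitter genes none was called, with a median of -0.18 and 25.0% higher. Among synapse genes well above background on all 4 arrays, Grm5, a glutamate receptor, was lowest at -0.99 (adjusted p = 0.247).

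Few genes for sulfation of sugars and for the pericellular matrix were called, and all of those named rose. Hs3st6, which adds a sulfate to heparan sulfate, read 5.79 and 6.01 with vehicle and 8.05 and 8.15 with E2, a gain of 2.20 (SE 0.14, adjusted p = 3.61e-05) or 4.58-fold. The gap between treatments was many times that between pools. Chst8, which sulfates the sugar chains of glycoprotein hormones, rose from 9.11 and 8.66 to 10.10 and 9.38 (0.85, SE 0.15, adjusted p = 0.0265). These made 2 calls of 33 heparan sulfate and proteoglycan enzymes, and Sdc3, a syndecan core protein, was the lowest member well above background on all 4 arrays at -0.30 (adjusted p = 0.442). Plau, the protease urokinase that activates plasminogen, rose from 7.30 and 6.97 to 8.68 and 8.11 (1.26, SE 0.18, adjusted p = 0.00617). Ogn, a small leucine-rich proteoglycan, rose from 7.40 and 7.27 to 8.27 and 7.97 (0.78, SE 0.12, adjusted p = 0.011). Both were the 1 call of their list, among 33 matrix proteases and inhibitors (median -0.09) and 40 collagen and interstitial matrix genes (-0.01).

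Metabolic and transport genes moved in both directions. Lpl, the lipase that releases fatty acids from lipoproteins, was bright, with 12.82 and 11.92 with vehicle and 13.86 and 13.03 with E2. The pools differed by almost as much as the treatments, yet both pairs rose, by 1.08 in the fit (SE 0.10, adjusted p = 0.000403). It was the 1 call of 46 cholesterol and fatty acid genes, whose median was 0.03 with 60.9% higher. Crabp2, which carries retinoic acid to its receptor, rose from 14.07 and 13.55 to 14.83 and 14.39 (0.79, SE 0.12, adjusted p = 0.00975). Aldh1a2, an enzyme that makes retinoic acid, went from 7.59 and 6.22 to 8.29 and 7.23 but was not called (0.85, adjusted p = 0.171). The transporters of the SLC13 family split. Slc13a3, a dicarboxylate transporter, was not well above background with vehicle (2.69 and 1.56) and reached 4.89 and 5.16 with E2, at least 5.83-fold higher (adjusted p = 0.0351). Slc13a5, the citrate transporter, fell from 11.39 and 10.97 to 10.57 and 10.45 (-0.67, SE 0.13, adjusted p = 0.0421). Etnk2, an ethanolamine kinase of phospholipid synthesis, fell from 11.11 and 11.14 to 10.42 and 10.67 (-0.58, SE 0.11, adjusted p = 0.0445).

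Further named genes rose. Tspan13, a tetraspanin of the cell membrane, rose from 8.50 and 7.91 to 9.93 and 9.72 (1.62, SE 0.16, adjusted p = 0.000403). Spink13, a serine protease inhibitor, rose from 4.77 and 4.72 to 6.29 and 6.14 (1.47, SE 0.19, adjusted p = 0.00338). Tmem45a, a transmembrane protein, rose from 5.98 and 5.31 to 7.30 and 6.86 (1.44, SE 0.17, adjusted p = 0.00177). All arrays of each gene separated by treatment. Rhd, the Rh blood group antigen, was not well above background with vehicle (2.17 and 1.87) and read 4.80 and 4.71 with E2, at least 5.65-fold higher (adjusted p = 0.0233). Tap2, the peptide transporter of antigen presentation, rose least of the genes named here, from 14.26 and 14.12 to 14.64 and 14.66 (0.46, SE 0.09, adjusted p = 0.0411). It was the 1 call of 47 interferon response and antigen presentation genes.

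Among the 24 lower genes, those with an ordinary symbol and the largest falls were Capn11, Krtap19-5, Ddx25 and Klra1. Capn11, a calpain protease of the testis, fell from 10.27 and 10.16 to 8.62 and 8.42, by 1.70 on the log2 scale (SE 0.13, adjusted p = 0.00012). Krtap19-5, a keratin-associated protein of hair, fell from 8.75 and 8.72 to 7.34 and 6.95 (-1.59, SE 0.14, adjusted p = 0.000357). Both had vehicle arrays within a narrow range and E2 arrays well below. Ddx25, an RNA helicase of male germ cells, fell from 11.04 and 9.72 to 9.56 and 8.82 (-1.19, SE 0.18, adjusted p = 0.00879). Klra1, a receptor of natural killer cells, fell from 10.50 and 9.18 to 9.14 and 8.68 (-0.93, SE 0.18, adjusted p = 0.0488). Ddx25 and Klra1 fell more in replicate 1 than in replicate 2. Krtap19-5 and Klra1 belong to families of near-identical copies, so that their probes may read several members.

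Other lower genes had smaller changes. Plekhg4, a guanine nucleotide exchange factor, fell from 9.39 and 9.20 to 8.45 and 8.48 (-0.84, SE 0.11, adjusted p = 0.00429). Cabp5, a calcium-binding protein, fell from 13.24 and 12.61 to 12.53 and 11.76 (-0.78, SE 0.14, adjusted p = 0.0318). Kif19a, a kinesin of cilia, fell from 7.83 and 7.86 to 7.17 and 7.03 (-0.74, SE 0.13, adjusted p = 0.0234). Of these, Cabp5 had the widest gap between pools. Cxcl5, a chemokine that attracts neutrophils, read 8.70 and 7.38 with vehicle and 7.88 and 6.76 with E2, so that the groups overlapped although each pair fell (-0.72, SE 0.14, adjusted p = 0.0412). Sh3tc1, a protein named for its SH3 domain, fell from 10.03 and 10.34 to 9.46 and 9.77 (-0.57, SE 0.10, adjusted p = 0.0242). Scx, a transcription factor of tendon cells, fell by 0.53 on the log2 scale, to 12.92 and 12.54 (SE 0.10, adjusted p = 0.0355). Cxcl5 was the 1 call of 38 cytokine, chemokine and NF-kB genes, whose median was -0.07. Rps21, a protein of the small ribosomal subunit whose processed copies may share its probe, fell from 12.81 and 12.89 to 12.19 and 12.16 (-0.67, SE 0.08, adjusted p = 0.00158). It was the 1 call of 81 cytosolic ribosomal protein genes. The list's median was -0.08 with 6.17% above 0, and turned to 0.01 under quantile normalization.

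**Figure D3:**
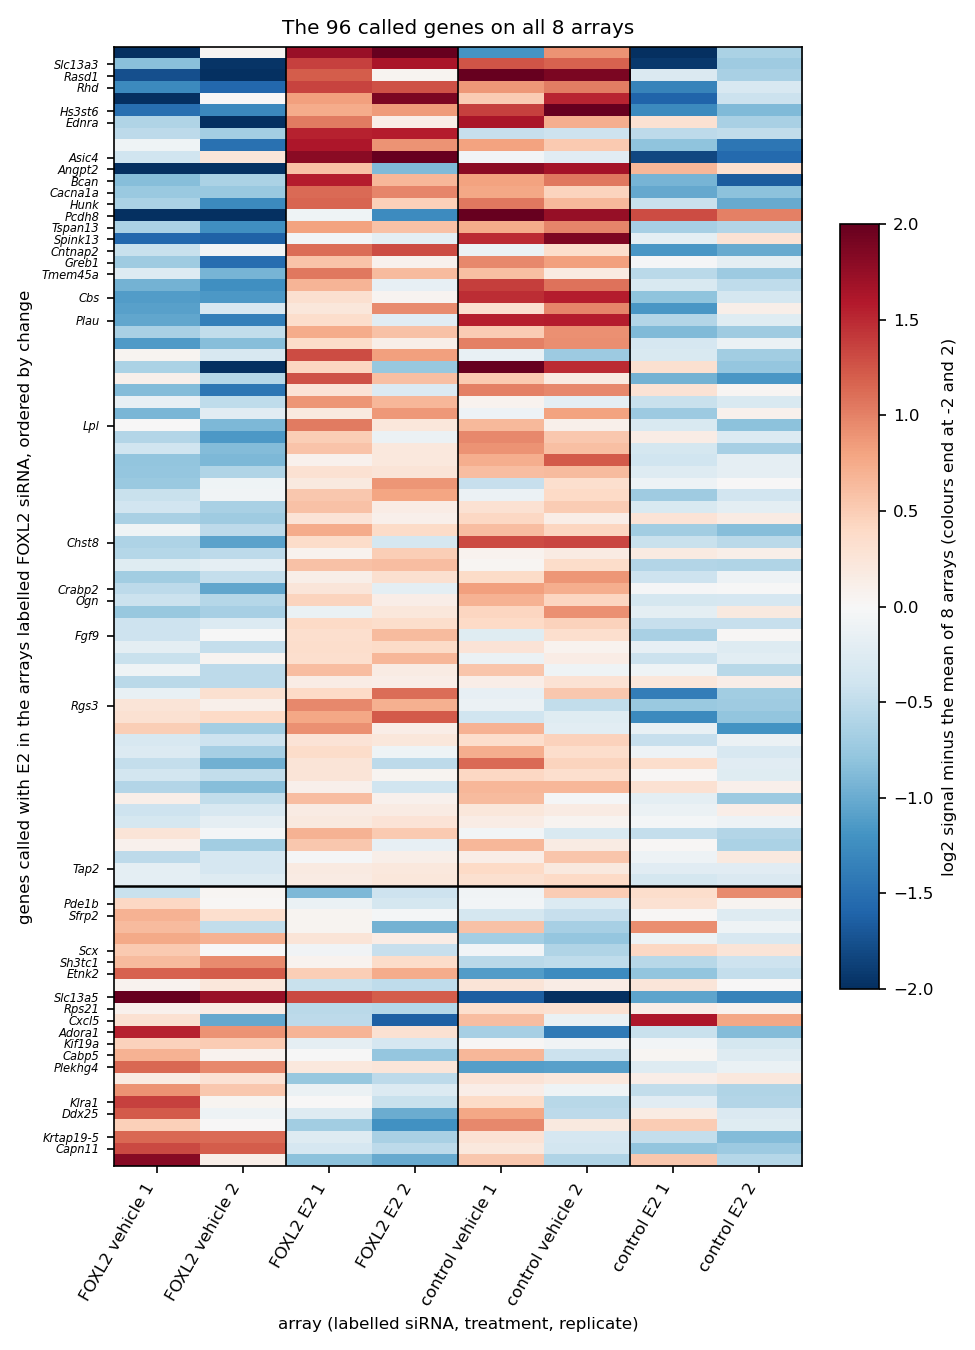
Log2 scaled signal of the 96 called genes (rows, ordered by their E2 change in the arrays labelled FOXL2 siRNA) on the 8 arrays (columns), as the difference from each gene's mean over the 8. The horizontal line parts the 72 higher from the 24 lower genes and colours end at -2 and 2. For 37 of the genes above the line the lowest group is FOXL2 siRNA with vehicle and the highest control siRNA with vehicle. Choosing genes higher with E2 favours a low FOXL2 siRNA vehicle group.

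Genes of ovarian identity showed few calls. Of 31 granulosa cell genes 0 were called, with a median of 0.00 and 54.8% higher, and the range ran from -0.36 for Foxl2 (adjusted p = 0.213) to 0.81 for Gja1, the main connexin of granulosa gap junctions (8.06 and 7.47 against 9.03 and 8.12, adjusted p = 0.0741). Foxo1, a forkhead factor of growing follicles, gave 0.36 (adjusted p = 0.154), and Fst -0.10 (adjusted p = 0.936). Of 25 Sertoli cell and testis genes, Fgf9 was the 1 that rose, while 20.0% lay above 0 and the median was -0.16. The list's low end held Gdnf, a secreted factor that Sertoli cells send to germ cells (7.44 and 7.43 against 6.71 and 7.15, -0.50, adjusted p = 0.215), and Sox9, the transcription factor of Sertoli fate (8.39 and 8.46 against 7.71 and 8.27, -0.43, adjusted p = 0.374). Its relative Sox8 gave -0.30 (adjusted p = 0.711). For these the E2 arrays lay below the vehicle arrays or met them, without a call.

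The receptors of E2 gave no call. Esr2 read 11.27 and 11.37 with vehicle and 11.41 and 11.08 with E2 (-0.07, adjusted p = 0.936). Esr1 was dim, at 4.10 and 4.13 against 4.10 and 4.17 (0.02, adjusted p = 0.996). Nr5a1, a regulator of steroid enzymes, gave 0.11 (adjusted p = 0.862). Among 38 nuclear receptors and coregulators 0 were called (median -0.07). Those well above background on all 4 arrays ran from -0.46 for Vdr, the vitamin D receptor, to 0.27 for Pparg, a receptor of lipid ligands. Of 28 genes of steroid synthesis 0 were called (median 0.01). Cyp17a1, the androgen-forming enzyme of theca cells, had the highest change of those measured on all 4 arrays, from 11.70 and 11.19 to 12.09 and 11.85 (0.52, adjusted p = 0.107), and Star, which brings cholesterol into mitochondria, the lowest (11.49 and 11.69 against 10.96 and 11.51, -0.36, adjusted p = 0.196). Cyp19a1, well above background on 1 of 2 arrays in each group, gave -0.35 (adjusted p = 0.899).

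Broad programmes of the cell gave no call at this threshold. No gene was called among 60 cell cycle genes (median -0.01), 38 apoptosis genes (0.00), 43 ER stress and ATF4 genes (-0.01), 41 glycolysis and hypoxia genes (-0.05), 54 genes of activin, inhibin, TGF-beta and BMP signalling (-0.03), 29 of Notch and hedgehog signalling (-0.06), 49 axon guidance genes (-0.07), 28 luteal and cumulus genes (-0.07) or 87 of oxidative phosphorylation (-0.06). Among 37 immediate early and stress genes Dusp1, a phosphatase of MAP kinases, fell just short, from 10.38 and 10.36 to 9.81 and 9.98 (-0.48, adjusted p = 0.0502). Dusp1 was also the gene nearest to the threshold from outside over all genes, and Klra1 lay just inside. Gdf15, a stress-induced member of the TGF-beta family, gave -0.38 (adjusted p = 0.166) and Adm, the vasodilator adrenomedullin, -0.56 (adjusted p = 0.118). The 34 GATA, WT1 and gonadal transcription factors had a median of -0.12 with 20.6% higher and 0 calls, and the 19 genes of the aryl hydrocarbon receptor list a median of 0.04 with 0 calls. Histone genes (55, median -0.03) and olfactory and vomeronasal receptors (128 measured of 1351, median 0.05) had 0 calls as well. The replicate pairs did not always share the sign of a list's median, as for immediate early genes (-0.17 in pair 1 and 0.06 in pair 2).

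**Figure D4:**
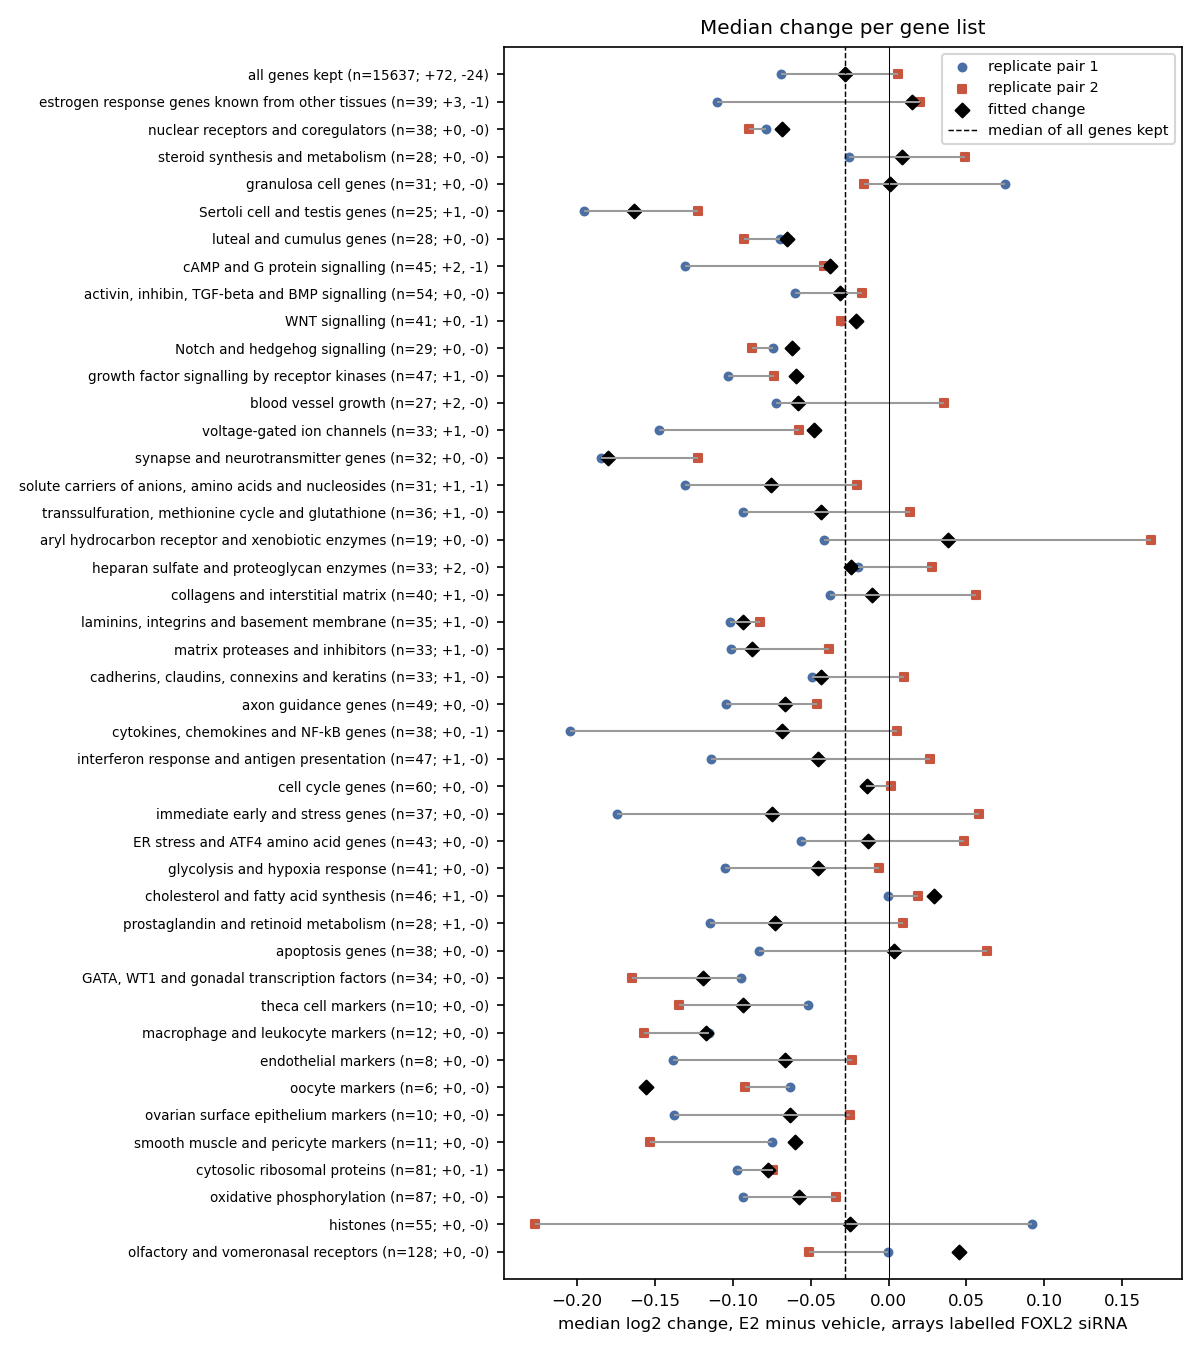
Median log2 change with E2 in arrays labelled FOXL2 siRNA (horizontal axis) for all genes and for 43 gene lists, with the number of measured genes (n) and of genes called higher (+) and lower (-) beside each name. Black diamonds are fitted changes, blue circles replicate pair 1, red squares replicate pair 2, and the dashed line is the median of all genes, -0.03. Medians lie between -0.18 and 0.05.

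The same treatment was then read in the arrays labelled control siRNA, which share no array with the 4 above. With control siRNA 182 genes (1.16%) were called, 40 higher (0.256%) and 142 lower (0.908%), and without the replicate block 3 (0.0192%), all lower. Of the 72 genes that E2 raised in the arrays labelled FOXL2 siRNA, 70 had a negative change with control siRNA and 52 of these were called lower there, while 53.0% of all genes were negative. The 72 genes had a median change of -0.87 with control siRNA. Greb1 fell by 1.00 there (adjusted p = 0.00416), from 14.74 and 14.60 to 13.75 and 13.58, and Hs3st6 by 2.76 (adjusted p = 4.1e-06). Cbs fell by 2.11 (adjusted p = 3.82e-05) and Plau by 1.98 (adjusted p = 0.000223). The study names Cbs and Angpt2 among genes that E2 activated with FOXL2 present, and Sox9 and Sox8 as repressed. It also reports E2 activation of selected genes by qPCR, and less SOX9 protein after E2 by western blot. Without FOXL2 it describes the activation by E2 as reduced on average. Under the control siRNA labels Angpt2 instead changed by -1.25 (limma adjusted p = 0.107). Sox9 went from 5.66 and 5.87 to 6.41 and 6.70, and Sox8 from 5.35 and 5.27 to 6.01 and 6.00. These directions are the reverse of the study's, and the cause was not tested. The 24 lower genes were mixed: 13 were higher and 11 lower with control siRNA, and 7 were called higher and 1 lower. The 1 called lower with both siRNAs was Capn11 (-0.68 with control siRNA, adjusted p = 0.0347). Slc13a5 and Plekhg4 rose with control siRNA (0.82 and 0.90, adjusted p = 0.00995 and 0.00229).

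Tested directly, the difference between the E2 effects of both siRNAs was called for 332 genes, 2.12% of those tested, with 229 positive (1.46%) and 103 negative (0.659%). It was called for 70 of the 72 higher and 15 of the 24 lower genes. Those genes were chosen on the E2 change that forms part of the difference, so these 2 counts are partly fixed by the choice. Without the replicate block the difference was called for 38 genes (0.243%), 37 positive (0.237%) and 1 negative (0.0064%). The difference was 4.95 for Hs3st6 (SE 0.20, adjusted p = 3.7e-07), 3.41 for Cbs (adjusted p = 8.58e-06), 2.45 for Greb1 (adjusted p = 3.24e-05) and -1.74 for Plekhg4 (adjusted p = 9.73e-05). Of the lower genes named above, no difference was called for Rps21 (-0.46, adjusted p = 0.0649), Ddx25 (-1.01, adjusted p = 0.0707), Sh3tc1 (-0.60, adjusted p = 0.0518), Klra1 (-0.61, adjusted p = 0.436), Cabp5 (-0.55, adjusted p = 0.293) and Kif19a (-0.56, adjusted p = 0.211). Across all genes, which are not independent replicates, the E2 changes with both siRNAs correlated at -0.18 (Pearson). FOXL2 siRNA with vehicle had the lowest of the 4 group means for 46 of the 72 higher genes. Control siRNA with vehicle had the highest for 40, and both were true of 37. The 72 genes were chosen with FOXL2 siRNA vehicle below FOXL2 siRNA E2, so the counts of 46 and 37 are partly fixed by the choice. The same counts over all genes were not made. Spink13 shows the order, at 4.77 and 4.72 with FOXL2 siRNA and vehicle, 6.29 and 6.14 with FOXL2 siRNA and E2, 6.14 and 6.62 with control siRNA and E2, and 7.83 and 8.21 with control siRNA and vehicle. Its E2 groups met in level while its vehicle groups stood apart. What sets this order was not tested.

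**Figure D5:**
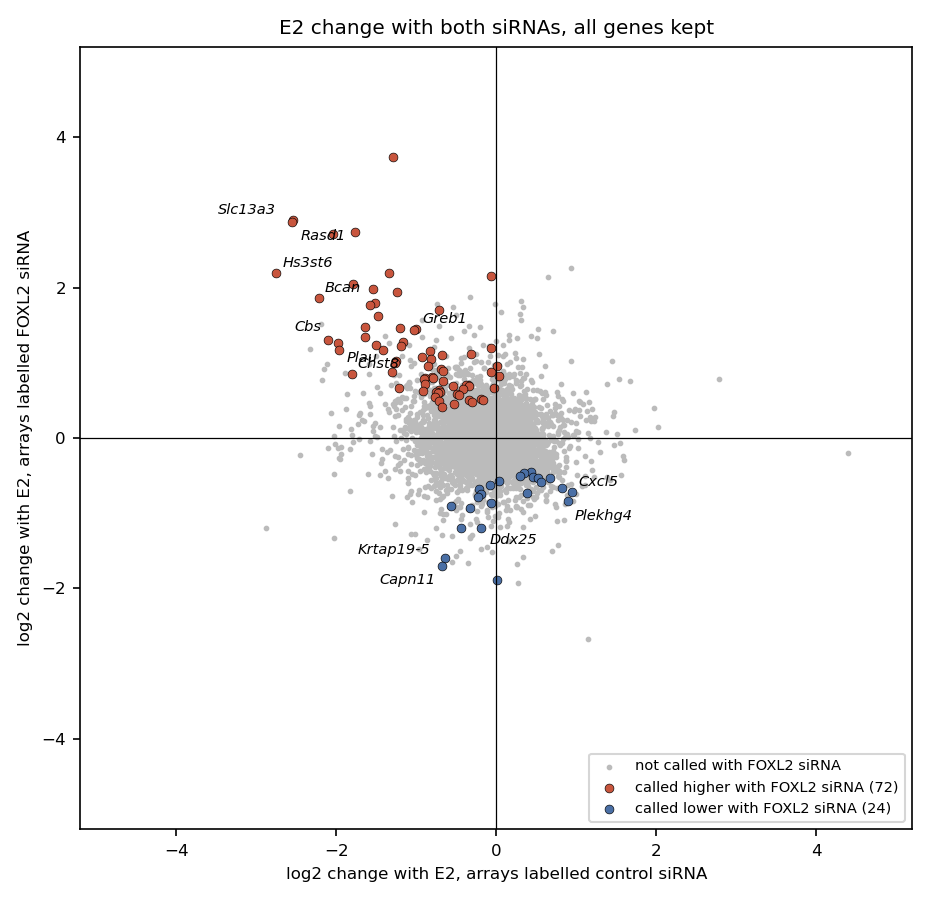
Log2 change with E2 in arrays labelled FOXL2 siRNA (vertical axis) against that in the arrays labelled control siRNA (horizontal axis) for 15637 genes. Red and blue points are the 72 genes called higher and the 24 called lower with FOXL2 siRNA, and grey points the rest. Of the red points, 70 lie left of 0.

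The study's own rule asks that group means differ by 1 or more (log2) and by over 2 times the sum of both SDs. It gave 34 target genes (0.217%) with FOXL2 siRNA, 25 higher and 9 lower. Of these, 16 were also called by limma. The rule has no p-value, and with values centred within replicate numbers it gave 66 targets, of which 37 were called. The study reports fewer E2 targets without FOXL2 than either count. What sets the counts apart was not tested.

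Single arrays weighed on single genes. Across 8 fits, each lacking 1 array, 26 of the 96 genes stayed called throughout, among them Rasd1, Hs3st6, Ednra, Cacna1a, Hunk, Tspan13, Cntnap2, Greb1, Tmem45a, Cbs, Lpl, Rps21, Krtap19-5 and Capn11. Among the 96, most calls were lost without replicate 1 of FOXL2 siRNA with vehicle. Next came replicate 2 of the same group and then replicate 1 of FOXL2 siRNA with E2. Leaving out replicate 1 of FOXL2 siRNA with vehicle ended the call of Asic4, Plekhg4 and Ddx25. Leaving out replicate 2 of that group ended the call of Spink13. Plau lost its call without either of those vehicle arrays, and Crabp2 without replicate 1 of E2 or replicate 2 of vehicle. Ogn, Fgf9 and Adora1 lost it without replicate 1 of vehicle or E2 or replicate 2 of vehicle (0.13, 0.0965 and 0.237), Cabp5 without either vehicle array or replicate 2 of E2 (0.262), and Slc13a3 without either E2 array or replicate 2 of vehicle (0.224). Rhd, Rgs3, Scx and Kif19a lost it without any 1 of the 4 arrays labelled FOXL2 siRNA (0.193, 0.213, 0.425 and 0.198). Angpt2, Bcan, Chst8, Klra1, Sfrp2, Sh3tc1, Slc13a5, Cxcl5, Tap2, Etnk2, Pcdh8 and Pde1b also lost it without at least 1 array labelled control siRNA, which enter only through the shared spread and block, with highest adjusted p between 0.221 for Sh3tc1 and 0.497 for Klra1. No called gene changed sign in any of these fits. Of 18 called genes with more than 1 probe well above background, all probes moved in the same direction in 17, the exception being Celf4, beside 53.4% of 4406 such genes overall. The called genes were chosen on the mean of these same probes, so this agreement is partly fixed by the choice.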

How the data were processed

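Gene expression was measured on 8 one-colour Agilent arrays (designed on mm9) on 1 slide scanned once, with 50 ng of RNA per array and 2 arrays in each of 4 groups taken from the sample titles. The deposited scanner files hold spot intensity values, after background subtraction by the authors' Feature Extraction software and not scaled between arrays, and flags for spots well above background. The authors' deposited table holds log2 values of probes averaged per row and scaled to the 75th percentile, and matched the scanner values within 0.01 after an offset per array at 99.4% of values.

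Here control spots and 42 non-uniform probes were left out, the processed signal was scaled to each array's 75th percentile and multiplied by their geometric mean, and the remaining 55639 probes were averaged on the linear scale over the gene IDs of the authors' table. Symbols came from RefSeq for 22349 of 24232 genes. Genes were kept from a median scaled signal of 10 upwards, and log2 values were fitted with limma 3.58.1 in R 4.3.3 as 4 group means over 8 arrays with the replicate number as a block, a spread that follows intensity and 3 residual degrees of freedom. All p-values were two-sided and adjusted by Benjamini-Hochberg over 15637 genes, with a threshold of 0.05. The methods subtract a median per replicate and the study pooled mice per replicate. Differences between replicates correlated at 0.33 to 0.44 in all 6 pairs of groups, so the numbers pair the arrays. Arrays carry no read depth, and 2 arrays per group limit the precision. P-values measure the spread left after the block has taken out the level of each replicate.

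Named genes were, in each direction, the 15 called genes of largest change that did not overlap between groups, agreed in both pairs, were well above background in a group and had an ordinary symbol, every called member of a list, the highest and lowest member of each list measured on all 4 arrays, and a few fixed genes. Some are not reported here. The members and lists were chosen with earlier results of these data known, and lists are described by counts and medians without a test. Motifs were searched in RefSeq promoter windows. Alternatives changed the block, scaling, background, filter, probes, intensity trend, table and arrays. Other steps ran in Python 3.11.15, with matplotlib 3.10.9 for plots and pandas 2.3.3 and numpy 2.4.6 for tables.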

Additional observations from a re-analysis of the deposited data

Results flagged for a closer look

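The E2 effects in the arrays labelled FOXL2 siRNA and control siRNA differed by a test of the difference itself for 332 genes. The values that follow are that difference for named genes, as the E2 change on the log2 scale with FOXL2 siRNA minus that with control siRNA, all at a limma adjusted p under 0.05.

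Among signalling, channel and adhesion genes it was 5.43 for Rasd1, 3.53 for Ednra, 3.52 for Asic4, 3.35 for Hunk, 3.32 for Cacna1a, 3.18 for Angpt2, 2.67 for Cntnap2, 2.42 for Pcdh8, 1.39 for Gja1, 1.08 for Rgs3 and 1.06 for Fgf9. Among genes of sulfation and matrix it was 4.95 for Hs3st6, 4.09 for Bcan, 3.24 for Plau, 2.66 for Chst8 and 1.69 for Ogn. Metabolic and transport genes gave 5.44 for Slc13a3, 3.41 for Cbs, 2.01 for Lpl, 1.59 for Crabp2, 1.54 for Cyp7b1, 1.22 for Lrp8, 1.12 for Car12, 0.84 for Cyp17a1 and 0.98 for Tap2. Rasd1, Slc13a3, Rhd, Angpt2 and Pcdh8 were at background in the vehicle arrays labelled FOXL2 siRNA, so their differences carry no fold. The remaining higher ones were Rhd (4.51), Tspan13 (3.11), Spink13 (3.11), Tmem45a (2.46), Greb1 (2.45) and Foxo1 (0.74).

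The difference was negative for Plekhg4 (-1.74), Cxcl5 (-1.67), Slc13a5 (-1.49), Gdnf (-1.27), Sox9 (-1.22), Scx (-1.20), Etnk2 (-1.14), Adora1 (-1.11), Capn11 (-1.02), Sox8 (-1.01), Dusp1 (-0.97), Krtap19-5 (-0.95), Adm (-0.93), Msln (-0.85), Pde1b (-0.81), Sfrp2 (-0.80), Gdf15 (-0.75) and Star (-0.70). Capn11 and Krtap19-5 were lower with E2 under both siRNAs and differed in size, while the others had E2 changes of opposite sign.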

How the results depend on the processing

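The replicate block decided most calls. Without it, 2 genes were called for E2 with FOXL2 siRNA (96 with it), 3 with control siRNA (182) and 38 for the difference of both effects (332). With no filter on low signal, which tests 24232 genes, the counts were 19, 14 and 91, and with no intensity trend 4, 2 and 77. The fit of only the 4 arrays compared gave 161 genes, of which 94 were among the 96. With any 1 array left out the counts ran from 42 to 114, from 38 to 239 and from 158 to 318. The lowest came without replicate 1 of FOXL2 siRNA with vehicle for the first, and for the others without the control siRNA array of replicate 1 given E2. In such fits the lone array of a group is assumed to vary like the rest. Quantile normalization, centring on the median, normexp, genes well above background, the brightest probe and the authors' table each gave 76 to 110 genes for E2 with FOXL2 siRNA. The study's rule gave 34 targets as scaled, 38 under quantile normalization, 66 centred within replicate numbers and 170 with no filter. No called gene changed sign under any alternative, but single calls varied. Of the 10 alternatives other than leaving out 1 array, Bcan and Pcdh8 each stayed called in 2. Hs3st6 stayed called in 9 of them and Gm11559 in all 10. Scaling moved the median of all genes to between -0.07 and 0.01. The alternatives for control siRNA alone were added after the data had been seen. The causes were not tested. With 2 arrays a group, changes in genes near background were the least certain.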

Other observations

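Among the called genes outside the naming rule, chosen after their values were seen, Kcnk1, a potassium channel, rose by 0.92 on the log2 scale and stayed called in all 8 fits that each lacked 1 array. Gm11559, a predicted gene, rose by 2.15, stayed called in all 8 and was with Cacna1a the only gene called without the replicate block. Pik3cd, a lipid kinase subunit, rose by 0.99 and lost its call without replicate 2 of FOXL2 siRNA with vehicle (limma adjusted p = 0.0762). Papss2, which makes the sulfate donor that sulfotransferases such as Hs3st6 and Chst8 use, rose by 0.59 and lost its call without replicate 1 of FOXL2 siRNA with vehicle or with E2 (up to 0.159).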
